A study of Mus musculus with 17 samples.

Results

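The genes followed here are 41 mouse genes whose products copy the genome: they license replication origins, switch on the replicative helicase, build and join the new strands, or supply deoxynucleotides. They were taken by name, as every probe whose platform annotation carries 1 of the 41 symbols, which gave 82 of the 45281 probes on the array and 41 of its 19057 annotated genes. Membership followed from the symbol alone, but the genes were chosen with earlier results of these data known. Each gene was read from its brightest probe, and 39 of the 41 were tested in each of 2 datasets. The catalytic subunit gene of DNA polymerase alpha, Pola1, was detected on 0 of 17 arrays, and Pole2, the second subunit of DNA polymerase epsilon, on 0 of 8 arrays of dataset A and 1 of 9 of dataset B, so both were left untested.

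C57Bl/6 mice received 150 mg/kg of 5-fluorouracil, which removes most cycling cells and so enriches for early progenitors, and their bone marrow was collected 4 days later. The marrow cells were grown for 7 days with stem cell factor, interleukin 11 and Flt3 ligand, transduced with an MXW retroviral vector, and collected as living EGFP+ cells 5 days after the first transduction. Dataset A held 3 arrays of the miR-cluster 99b/let-7e/125a vector, 2 of the miR-155 vector and 3 of the empty vector. Dataset B held 3 arrays of the cluster vector, 3 of the miR-125a vector and 3 of the empty vector. Drug, cytokines, transduction and sorting were thus shared by every group, the empty vector included, and each vector was compared with the empty vector of its own dataset. The sorted cells are a mixture of transduced marrow cells and not a clone, and neither the age nor the sex of the mice is given in the labels. All 9 genes of a neutrophil primary granule list were detected on every array, among them Mpo, Elane and the regulators Cebpe and Gfi1. Of 12 primitive progenitor genes 7 were, Kit and Cd34 among them, while Mycn was detected on 0 arrays and Flt3, Slamf1, Procr and Mecom on a few. Of 14 lymphoid genes, 2 (Cd79b and Nkg7, which the granule list also holds) were detected on every array and 4 (Cd3g, Cd4, Cd8a and Ncr1) on 0, and the T cell gene Cd3e was detected on 2 of 8 arrays of dataset A and 0 of 9 of dataset B.

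Replication begins when the origin recognition complex, Cdc6 and Cdt1 load the ring-shaped Mcm2-7 helicase onto DNA in G1. Cdc45, the GINS complex and Mcm10 turn it into a moving helicase in S phase, and the polymerases, the Pcna clamp and its loaders follow. The genes are largely E2F targets, their transcripts are high in cycling cells, and dividing progenitors of the marrow express them before they mature into non-dividing neutrophils.

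The vectors carry miRNAs with 4 different seeds, the bases that pair with target transcripts. Their mature sequences, from RefSeq on GRCm38.p6, are shown because they are what separates the groups, with bases 2 to 8, the seed, in capitals. The first 3 make up the cluster, from chr17:17830194-17830215, chr17:17830366-17830387 and chr17:17830817-17830840 on the plus strand, and the last lies at chr16:84714143-84714165 on the plus strand.
mmu-miR-99b-5p: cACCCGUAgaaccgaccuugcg
mmu-let-7e-5p: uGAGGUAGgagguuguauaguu
mmu-miR-125a-5p: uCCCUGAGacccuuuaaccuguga
mmu-miR-155-5p: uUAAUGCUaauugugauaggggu

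Some promoters of the genes hold letters of the E2F site. TTTCCCGC, TTTCGCGC, TTTGCCGC and TTTGGCGC were searched on both strands of the 250 bases before the start of each gene, and a match could overlap another. At least 1 of these was found in 8 of the 33 replication genes with a promoter in the RefSeq table (24.2%), against 583 of all 27025 genes in it (2.16%). The 8 were Cdc6, Gins3, Mcm5, Mcm6, Mcm7, Orc1, Pola1 and Rfc3. Stretches around the matches in 4 licensing genes are given 5′ to 3′ on the gene's own strand, with the matched letters in capitals; Mcm5 and Mcm6 each hold matches that overlap on opposite strands. A match is a run of letters and was not tested as a binding site. They lie at chr8:75109326-75109397 (plus strand, Mcm5), chr1:128359715-128359845 (minus strand, Mcm6), chr11:98907983-98908050 (plus strand, Cdc6) and chr4:108579397-108579453 (plus strand, Orc1) of GRCm38.p6.
Mcm5: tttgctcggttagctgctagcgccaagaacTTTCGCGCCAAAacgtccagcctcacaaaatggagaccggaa
Mcm6: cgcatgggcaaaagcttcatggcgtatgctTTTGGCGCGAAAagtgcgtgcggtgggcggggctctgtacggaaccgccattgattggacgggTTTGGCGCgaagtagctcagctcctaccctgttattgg
Cdc6: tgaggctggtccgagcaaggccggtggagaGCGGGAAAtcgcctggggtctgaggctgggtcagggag
Orc1: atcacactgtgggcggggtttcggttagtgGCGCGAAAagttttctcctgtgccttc

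Values below are log2 levels, that is, log2 of the background-corrected and quantile-normalized bead intensity. Changes are differences of log2 means with the standard error (SE) from limma, and a gene is called where its Benjamini-Hochberg adjusted p over all genes tested is under 0.05. Cluster arrays of dataset A are listed as array 1, the array without a number of its own, and array 3; all others are in the order of their numbers. Between 34.2% and 38.9% of probes were detected on each of the 17 arrays. The study's design text calls the replicates independent biological ones, and their small number limits the precision.

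No vector gave a called change in any of the 39 tested replication genes under quantile normalization. With the cluster vector in dataset A the limma count was 0 of 39, where 66 of all 10267 genes were called (0.643%). With the miR-155 vector it was again 0 of 39, where 107 genes were called (1.04%). In dataset B it was 0 of 39 with the cluster vector, where 1 of 9395 genes was called (0.0106%; 0 with the replicate number as a block), and 0 of 39 with the miR-125a vector, where 0 genes were called (0%). The lowest limma adjusted p of any of the 39 was 0.251 with the cluster and 0.189 with miR-155 in dataset A, and 0.463 with the cluster and 0.217 with miR-125a in dataset B. Median scaling gave a different count in 1 comparison, miR-125a: 10 of 39 (25.6%) were called there and all rose, where 1766 of all genes were called (18.8%) and 1764 of those rose. The 10 were Cdc6, Cdt1, Mcm10, Gins1, Gins2, Gins3, Pold1, Rfc1, Rpa2 and Lig1. The median log2 change over all genes was itself 0.48 under that scaling, and 0.56 over the 39. In the other comparisons that scaling moved the median of all genes to -0.08 (cluster) and -0.31 (miR-155) in dataset A and 0.32 (cluster) in dataset B. Under it the sign of the log2 change turned for 11 of the 39 genes with the cluster and 23 with miR-155 in dataset A, and for 17 with the cluster and 15 with miR-125a in dataset B. Next, the median-scaled change was taken relative to the median of all genes, and the quantile-normalized change relative to 0. By that count 2 and 11 genes lay on the other side in dataset A, and 2 and 6 in dataset B. It can miss genes whose quantile-normalized change lay between 0 and the median of all genes.

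At an unadjusted p under 0.05, with quantile normalization, between 2 and 5 of the 39 genes passed. With the cluster vector in dataset A, 2 of the 39 passed (5.13%), against 7.81% of all genes, and with miR-155 3 passed (7.69%), against 8.98%. In dataset B 2 passed with the cluster (5.13%), against 9.80% of all genes, and 5 with miR-125a (12.8%), against 10.6%. The median log2 change over the 39 was 0.03 with the cluster and 0.06 with miR-155 in dataset A, where all genes had medians of 0.00 and 0.01. In dataset B the median was 0.01 with the cluster and 0.01 with miR-125a, beside 0.02 and 0.03 over all genes. All 4 comparisons draw on 1 set of empty-vector arrays per dataset, so the 2 comparisons within a dataset are not independent.

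The intervals bound what these arrays could have missed under quantile normalization. Each was taken for a single gene, without adjustment for the number of genes. Against the empty vector, the 95% confidence interval lay within 2-fold either way for 38 of 39 genes with the cluster and 37 with miR-155 in dataset A. In dataset B it did so for all 39 genes with the cluster and all 39 with miR-125a. Within 1.5-fold lay 28 and 23 genes in dataset A, with the cluster and with miR-155, and 34 and 33 in dataset B, with the cluster and with miR-125a. The intervals that reached beyond 2-fold were those of Gmnn with the cluster, and of Cdt1 and Gins1 with miR-155. They do not cover the choice of normalization. Under median scaling the log2 changes of Gins1 and Rfc1 with miR-125a were 1.06 and 1.08 (0.58 and 0.60 relative to the median of all genes). With miR-155, those of Cdt1 and Gins1 were -1.03 and -1.05 (-0.71 and -0.74 relative to that median). Since the cells were measured in bulk, fewer cells of a type and less RNA per cell cannot be told apart.

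**Figure D1:**
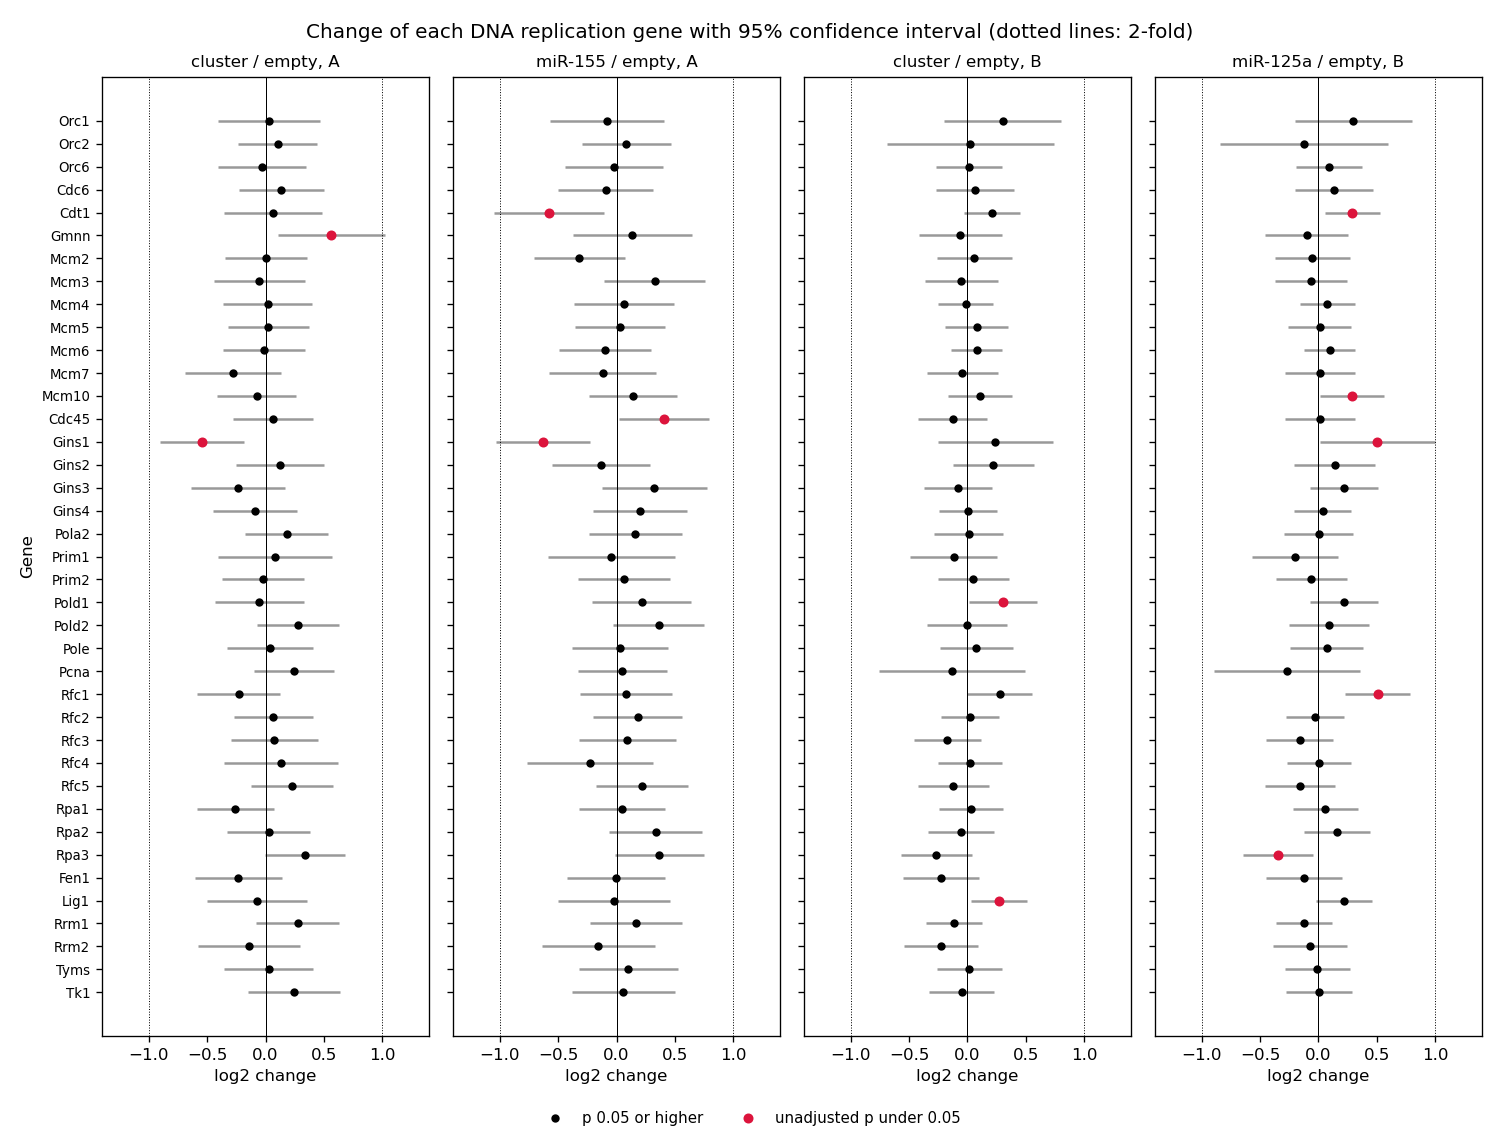
Log2 change of each of the 39 tested replication genes (rows) against the empty vector of its dataset, 1 panel per vector; points are estimates, bars 95% confidence intervals, dotted lines 2-fold, and red points have an unadjusted p under 0.05. Nearly all estimates sit close to 0, from -0.63 for Gins1 with miR-155 to 0.56 for Gmnn with the cluster in dataset A.

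Of the 12 genes of origin licensing, the 6 subunits of the Mcm2-7 ring lay close to the empty vector in most comparisons. Mcm5 had log2 levels of 11.59, 11.62 and 11.64 with the cluster and 11.61 and 11.63 with miR-155, against 11.83, 11.40 and 11.53 with the empty vector of dataset A. In dataset B it had 11.54, 11.56 and 11.71 with the cluster and 11.59, 11.34 and 11.69 with miR-125a, against 11.47, 11.61 and 11.50 with the empty vector. The groups overlapped throughout, and the changes were 0.02 (SE 0.16), 0.03 (SE 0.18), 0.08 (SE 0.12) and 0.01 (SE 0.12) in that order. Mcm6 in dataset B was tighter still, at 11.73, 11.77 and 11.78 with the cluster and 11.79, 11.77 and 11.77 with miR-125a, against 11.73, 11.60 and 11.71 with the empty vector. Every array of either vector there lay above those of the empty vector, in 1 case by less than the rounding shows, and the means differed by 0.08 and 0.10 with limma adjusted p of 0.855 and 0.772. The widest changes of the ring were with miR-155: Mcm3 differed by 0.33 (SE 0.21, limma adjusted p = 0.714) and Mcm2 by -0.32 (SE 0.18, limma adjusted p = 0.657), opposite in sign within 1 complex.

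The loader Cdt1 and its inhibitor geminin, encoded by Gmnn, gave the larger licensing differences. Cdt1 had log2 levels of 9.79 and 9.28 on the miR-155 arrays, against 10.18, 10.21 and 9.94 on the empty-vector arrays. Both miR-155 arrays lay below all 3 empty-vector arrays, and array 2 was lower than array 1 by more than the gap between the groups. The change was -0.58 (SE 0.22, limma adjusted p = 0.393), 1.49-fold lower. Leaving out 1 array at a time moved it between -0.83 and -0.32, the latter without miR-155 array 2. Under median scaling it was -1.03, or -0.71 relative to the median of all genes. With the 2 array numbers as a block on the authors' normalized values, Cdt1 was called, at -0.60 with a limma adjusted p of 0.0222, in a fit of 4 arrays in which 189 of all genes were called (1.84%). With the cluster in dataset A, Cdt1 was at 10.39, 10.34 and 9.79, overlapping the empty vector, a change of 0.06.

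In dataset B, Cdt1 was higher than the empty vector with both vectors. It had 10.40, 10.52 and 10.54 with the cluster and 10.51, 10.59 and 10.60 with miR-125a, against 10.26, 10.19 and 10.39 with the empty vector. All arrays of both vectors lay above the 3 empty-vector arrays. The changes were 0.29 (SE 0.11, limma adjusted p = 0.397) with miR-125a and 0.21 (SE 0.11, limma adjusted p = 0.574) with the cluster.

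Gmnn is a dim probe in dataset A, detected on 3 of 3 cluster arrays, 1 of 2 miR-155 arrays and 2 of 3 empty-vector arrays. It had log2 levels of 5.48, 5.02 and 5.29 with the cluster and 5.16 and 4.51 with miR-155, against 4.81, 4.99 and 4.31 with the empty vector. The 3 cluster arrays lay above the empty-vector arrays, the lowest of them by a narrow margin. The change with the cluster was 0.56 (SE 0.21, limma adjusted p = 0.449), 1.48-fold higher, and 0.14 (SE 0.24) with miR-155. In dataset B the probe was detected on all 9 arrays, and Gmnn differed by -0.06 with the cluster and -0.10 with miR-125a, with overlapping groups.

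The remaining licensing genes overlapped between groups in all 4 comparisons. Cdc6, which joins the origin recognition complex to load the helicase, differed by between -0.09 with miR-155 and 0.14 with the cluster in dataset A. Orc1, the largest subunit of that complex, was uneven among replicates: its empty-vector levels were 5.61, 5.00 and 5.82 in dataset B, where both vectors gave a change of 0.30 (SE 0.23). Orc6 differed by -0.03 to 0.09. Orc2 was detected on 0 of 3 empty-vector arrays of dataset A, 1 of 3 cluster arrays and 1 of 2 miR-155 arrays, so it had only a bound there and is given no fold. In dataset B it was detected on 6 of 9 arrays, and its empty-vector levels ran from 4.28 to 5.68.

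**Figure D2:**
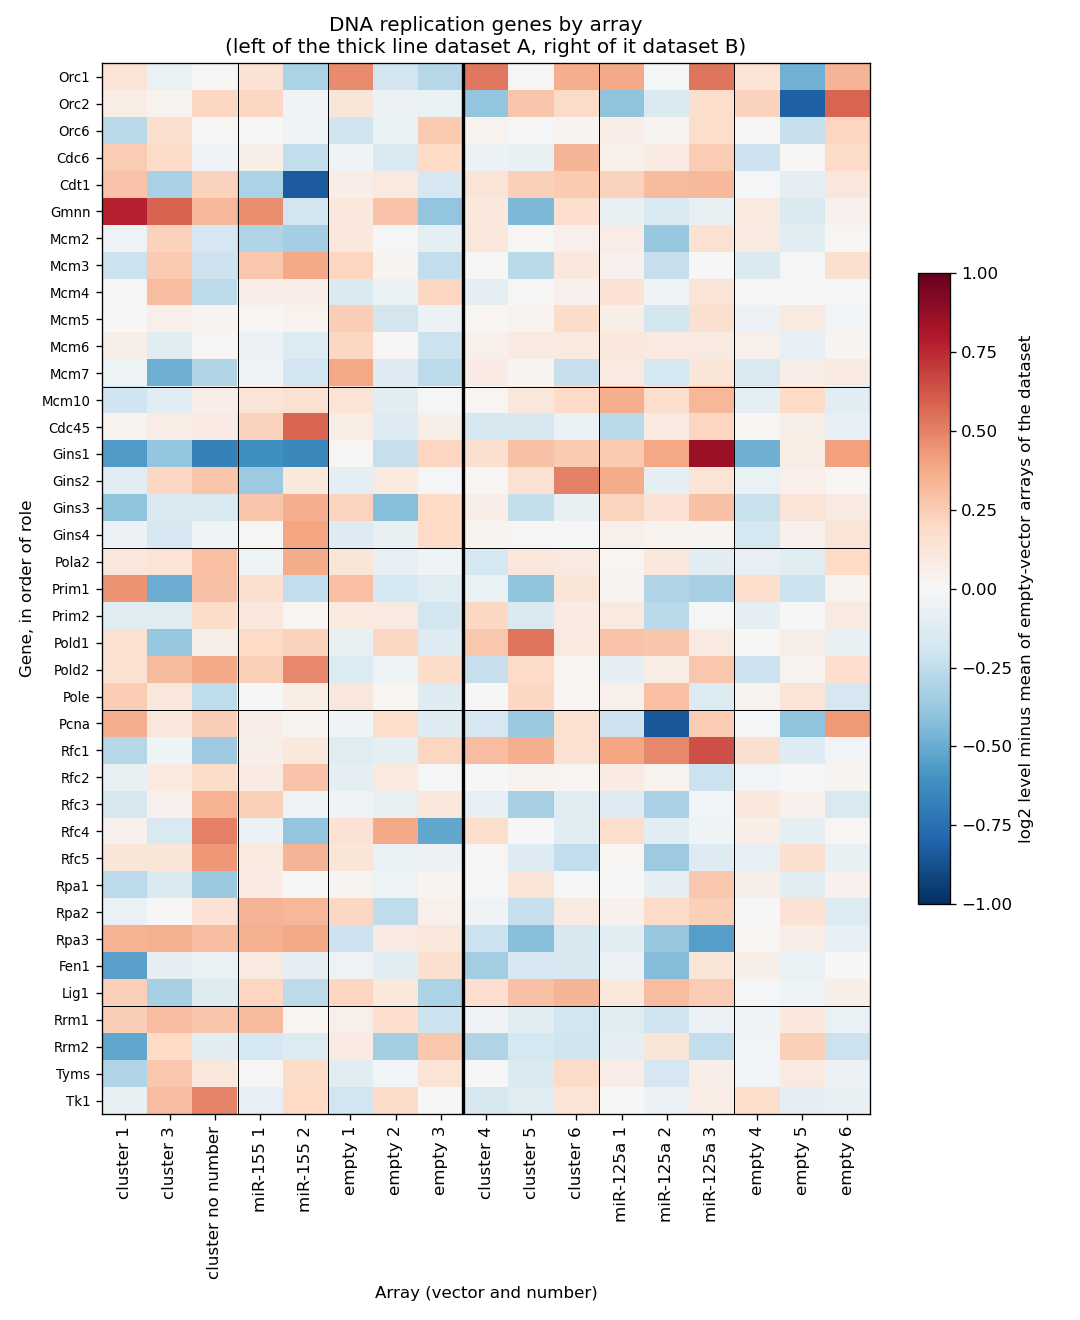
Log2 level of each tested replication gene (rows, ordered by role) on each of the 17 arrays (columns), as the difference from the mean of the empty-vector arrays of the same dataset; red is higher and blue lower, and thin lines part roles and groups. Most cells are pale, and no row keeps 1 strong colour across all vector arrays.

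Among the 6 genes that switch on the helicase, Gins1 had the lowest p in dataset A. Its product is 1 of the 4 GINS subunits, which with Cdc45 and the Mcm2-7 ring form the active helicase. It had log2 levels of 7.30, 7.19 and 7.47 with the cluster and 7.25 and 7.22 with miR-155, against 7.88, 7.64 and 8.08 with the empty vector. All arrays of both vectors lay below the 3 empty-vector arrays. The change was -0.55 (SE 0.17, limma adjusted p = 0.251) with the cluster, 1.46-fold lower, and with miR-155 -0.63 (SE 0.19, limma adjusted p = 0.189), 1.55-fold lower, both against the same 3 arrays. Leaving out 1 array at a time moved the first between -0.66 and -0.44 and the second between -0.75 and -0.52.

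Gins1 did not repeat this in dataset B. It had 7.76, 7.89 and 7.86 with the cluster and 7.85, 7.98 and 8.46 with miR-125a, against 7.11, 7.67 and 8.01 with the empty vector. The empty-vector arrays spread over the range of the cluster arrays and beyond. The change was 0.24 (SE 0.22, limma adjusted p = 0.802) with the cluster and 0.50 (SE 0.22, limma adjusted p = 0.464) with miR-125a. The cluster change of dataset A minus that of dataset B was -0.78 (SE 0.27, limma adjusted p = 0.866), so the difference between the datasets was not called either.

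The other GINS subunits did not follow Gins1. With the cluster in dataset A, Gins2 differed by 0.12, Gins3 by -0.23 and Gins4 by -0.09, all with overlapping arrays. With miR-155, Gins3 had 6.40 and 6.49, against 6.34, 5.70 and 6.33 with the empty vector, a change of 0.32 (SE 0.21, limma adjusted p = 0.736). With miR-125a, Gins3 was at 6.74, 6.65 and 6.80, against 6.29, 6.64 and 6.60, a change of 0.22 (SE 0.13, limma adjusted p = 0.604). In both cases the vector arrays lay above the empty-vector arrays, while Gins4 overlapped with every vector.

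Cdc45, which rides with the helicase, had 8.77 and 9.12 with miR-155, against 8.61, 8.41 and 8.60 with the empty vector of dataset A. Both miR-155 arrays were higher, by a mean of 0.41 (SE 0.18, limma adjusted p = 0.511). Under median scaling Cdc45 was at -0.04, which is 0.27 above the median of all genes there. Mcm10, which helps the helicase start and binds polymerase alpha, had 9.46, 9.27 and 9.42 with miR-125a, against 8.99 to 9.29 over the 3 arrays of the empty vector, which overlapped. Its change was 0.29 (SE 0.12, limma adjusted p = 0.450), and a second Mcm10 probe gave -0.19 there and -0.50 with the cluster, where the brightest gave 0.11.

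The 6 tested genes of polymerases and primase overlapped between groups except for Pold1 and Pold2, the catalytic and second subunits of polymerase delta. Pold1 had 9.64, 9.91 and 9.48 with the cluster and 9.66, 9.65 and 9.47 with miR-125a, against 9.39, 9.44 and 9.30 with the empty vector of dataset B. All arrays of both vectors were above the empty-vector arrays, by 0.30 (SE 0.13, limma adjusted p = 0.504) and 0.22 (SE 0.13, limma adjusted p = 0.608). In dataset A, Pold1 had 9.66, 9.57 and 9.13 with the cluster, against 9.43, 9.71 and 9.38, a change of -0.06. Pold2 had 9.71 and 9.95 with miR-155, against 9.34, 9.42 and 9.66, a change of 0.36 (SE 0.19, limma adjusted p = 0.602). Under median scaling Pold2 was at -0.07, or 0.25 above the median of all genes. Pole, the catalytic subunit of polymerase epsilon, differed by 0.03 to 0.08 in the 4 comparisons, and Pola2, Prim1 and Prim2, which with Pola1 start each new strand, by -0.20 to 0.18.

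Rpa3 and Rfc1 stood out among the 11 genes of the clamp, its loader, single-strand binding and strand joining. Rpa3 is the smallest subunit of the protein that coats single-stranded DNA. It had 10.65, 10.61 and 10.66 with the cluster and 10.66 and 10.69 with miR-155, against 10.09, 10.40 and 10.42 with the empty vector of dataset A. In dataset B it had 10.29, 10.09 and 10.35 with the cluster and 10.40, 10.13 and 9.96 with miR-125a, against 10.52, 10.57 and 10.43 with the empty vector. Every vector array was thus above the empty vector in dataset A and below it in dataset B.

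The Rpa3 changes were 0.34 (SE 0.16, limma adjusted p = 0.643) with the cluster and 0.37 (SE 0.18, limma adjusted p = 0.571) with miR-155 in dataset A. They were -0.27 (SE 0.14, limma adjusted p = 0.577) with the cluster and -0.35 (SE 0.14, limma adjusted p = 0.416) with miR-125a in dataset B. Relative to the median of all genes under median scaling, Rpa3 kept these sides: 0.33 with the cluster and 0.26 with miR-155 in dataset A, and -0.25 with the cluster and -0.29 with miR-125a in dataset B. Before that shift is taken off, 3 of the 4 values had the other sign (-0.05 with miR-155, 0.07 with the cluster and 0.19 with miR-125a in dataset B). For the 1 vector present in both datasets, the cluster, the change in A minus that in B was 0.61 (SE 0.19, limma adjusted p = 0.860), with an unadjusted p of 0.00645. Of all 10098 genes in that fit, 567 (5.61%) had an unadjusted p under 0.05 and 0 were called (0%). The replication genes had 4 of 39 under 0.05, namely Gmnn, Gins1, Rfc1 and Rpa3, and 0 called. Of the other subunits, Rpa1 lay below the empty vector on all 3 cluster arrays of dataset A, by -0.26 (SE 0.16, limma adjusted p = 0.777), and Rpa2 lay above it on both miR-155 arrays, by 0.34 (SE 0.19, limma adjusted p = 0.649).

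Rfc1, the large subunit of the complex that places the Pcna clamp on DNA, had the lowest p of the 39 in dataset B. It had 8.64, 8.72 and 8.89 with miR-125a and 8.55, 8.61 and 8.39 with the cluster, against 8.40, 8.11 and 8.21 with the empty vector. All 3 miR-125a arrays were above the empty-vector arrays, and 2 of 3 cluster arrays were. The change was 0.51 (SE 0.12, limma adjusted p = 0.217) with miR-125a, 1.42-fold higher, and 0.27 (SE 0.12, limma adjusted p = 0.513) with the cluster. The 4 smaller loader subunits, Rfc2 to Rfc5, differed by -0.16 to 0.01 with miR-125a, with overlapping arrays. With the cluster in dataset A, Rfc1 was at 9.24, 9.16 and 9.48, against 9.41, 9.43 and 9.74 with the empty vector, a change of -0.23.

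Pcna, the sliding clamp, was among the least even genes between replicates of dataset B. It had 9.12, 8.91 and 9.44 with the cluster and 9.08, 8.44 and 9.54 with miR-125a, against 9.27, 8.88 and 9.71 with the empty vector. The spread within each group exceeded the changes of -0.13 (SE 0.28) and -0.27 (SE 0.28). Fen1, the nuclease that trims Okazaki fragments, had 10.52, 10.70 and 10.71 with the cluster, against 10.93, 10.80 and 10.87 with the empty vector of dataset B, without overlap. That change was -0.23 (SE 0.15, limma adjusted p = 0.679), and in dataset A, where arrays overlapped, it was -0.23 as well. Lig1, which seals the fragments, had 9.78, 9.90 and 9.95 with the cluster and 9.71, 9.91 and 9.86 with miR-125a, against 9.59, 9.57 and 9.67 with the empty vector of dataset B. Those groups did not overlap, and the changes were 0.27 (SE 0.11, limma adjusted p = 0.463) and 0.22 (SE 0.11, limma adjusted p = 0.509). A dimmer Lig1 probe went the other way, by -0.43 (SE 0.14) and -0.52 (SE 0.14), so the direction for Lig1 differed between probes.

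The 4 genes of nucleotide supply encode both subunits of ribonucleotide reductase (Rrm1 and Rrm2), thymidylate synthase (Tyms) and thymidine kinase (Tk1). Rrm1 had 10.28, 10.31 and 10.34 with the cluster, against 10.08, 10.20 and 9.82 with the empty vector of dataset A. The groups did not overlap, with a change of 0.28 (SE 0.17, limma adjusted p = 0.782). In dataset B, Rrm1 had 10.19, 10.11 and 10.03 with the cluster, against 10.19, 10.33 and 10.15, a change of -0.11. Rrm2 differed by -0.22 to -0.07 over the 4 comparisons, Tyms by -0.01 to 0.10 and Tk1 by -0.05 to 0.24, all with overlapping arrays.

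**Figure D3:**
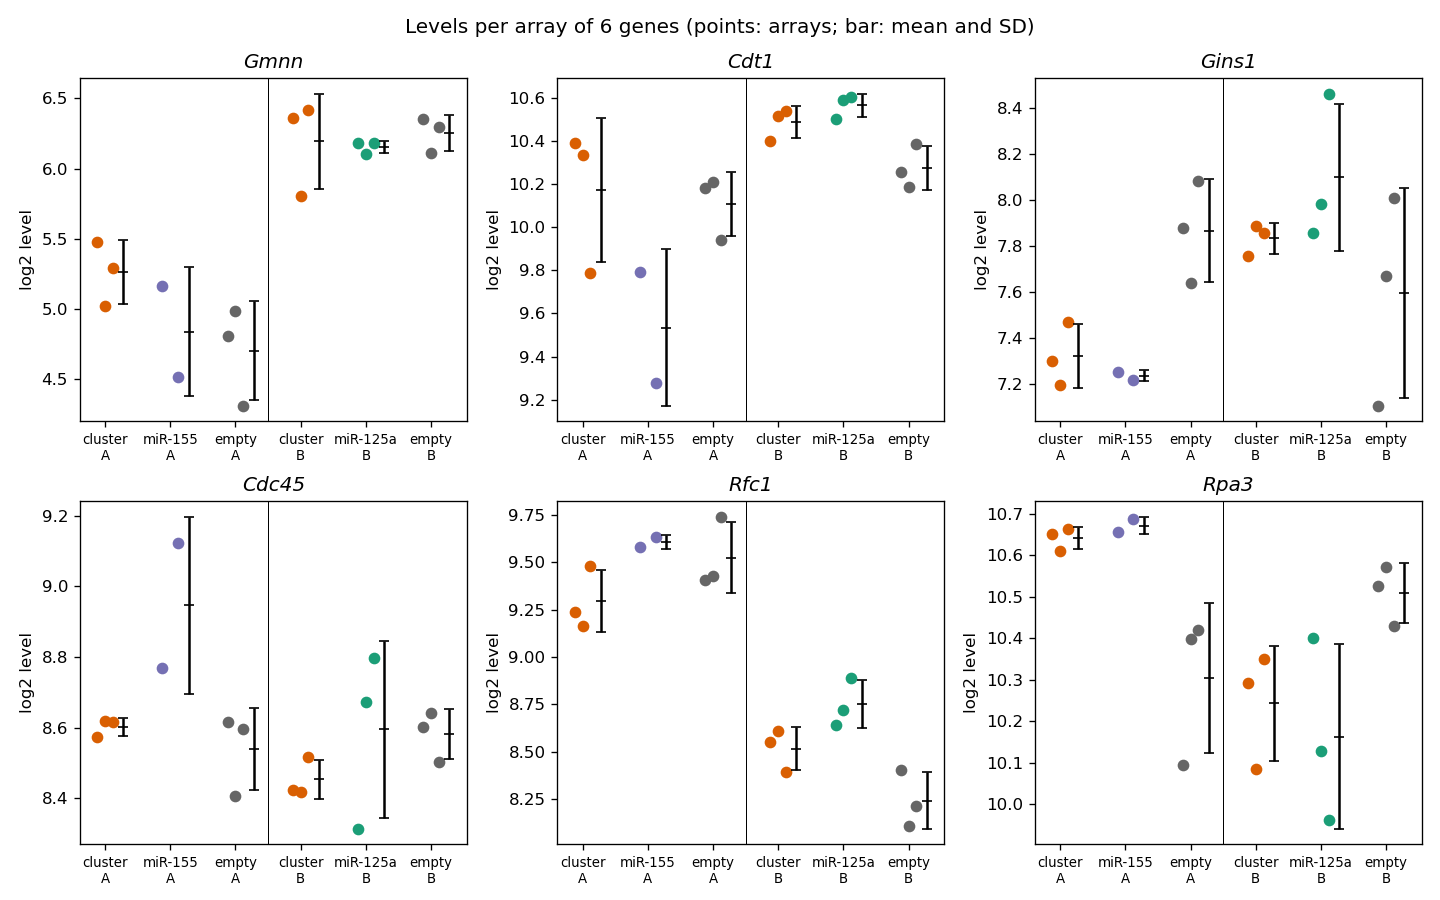
Log2 levels on each array (points) with group mean and SD (bars) for Gmnn, Cdt1, Gins1, Cdc45, Rfc1 and Rpa3, dataset A left and dataset B right of the line in each panel, with the empty vector last. Gins1 lies lower with both vectors than with the empty vector in dataset A, with overlap in dataset B, and Rpa3 changes side between the datasets.

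Counted over all 39 genes, arrays of the 2 groups did not overlap for 5 genes with the cluster in dataset A (12.8%), where all genes gave 13.0%: 3 lay above the empty vector, as 6.36% of all genes did, and 2 below, as 6.62% did. With miR-155 they did not overlap for 9 (23.1%), where all genes gave 24.0%: 6 lay above, as 11.6% of all genes did, and 3 below, as 12.4% did. In dataset B there were 6 with the cluster (15.4%), where all genes gave 16.1%: 4 lay above, as 10.3% of all genes did, and 2 below, as 5.80% did. With miR-125a there were 7 (17.9%), where all genes gave 15.5%: 6 lay above, as 10.1% of all genes did, and 1 below, as 5.34% did. Of the 41 genes, 16 had further probes, 30 in all: their change had the sign of the brightest probe for 19 of 30 with the cluster and 17 with miR-155 in dataset A. In dataset B this held for 17 with the cluster and 19 with miR-125a.

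The vectors were also set against each other within a dataset. The limma count was 0 of 39 for the cluster against miR-155, where 88 of all genes were called (0.857%), and 0 of 39 for the cluster against miR-125a, where 0 genes were called (0%). At an unadjusted p under 0.05 there were 2 of 39 (5.13%), against 10.2% of all genes, and 1 of 39 (2.56%), against 4.57%. Arrays of the cluster and miR-155 did not overlap for 11 of 39 genes (28.2%), where all genes gave 25.1%, and those of the cluster and miR-125a for 2 (5.13%), where all genes gave 9.47%. Cdt1 was 0.64 log2 higher with the cluster than with miR-155 (limma adjusted p = 0.275), with overlapping arrays. Gins3 was at 5.72, 5.97 and 5.98 with the cluster, below 6.40 and 6.49 with miR-155, a difference of -0.56 (limma adjusted p = 0.332), and it also differed by -0.30 between the cluster and miR-125a (limma adjusted p = 1.00).

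Levels of some replication genes differed far more between the datasets than with any vector. In the 12 cluster and empty-vector arrays normalized together, 5 of 39 genes (12.8%) were higher by over 1 log2 on the empty-vector arrays of B than on those of A, where 5.16% of all genes were. In the other direction 1 of 39 (2.56%) was lower by over 1 log2, where 6.85% of all genes were. Pcna had 9.28, 8.91 and 9.71 in dataset B, against 6.99, 7.20 and 6.90 in dataset A, a difference of 2.27. Prim1 had 7.11, 6.71 and 6.96, against 5.12, 4.66 and 4.72, and Rfc4 10.22, 10.07 and 10.18, against 8.55, 8.78 and 7.90. Gmnn and Mcm7 were also higher in B, by 1.45 and 1.30, while Rfc1 was lower, by -1.23. The arrays of the 2 datasets did not overlap for any of the 6, and dataset and batch cannot be told apart.

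Other genes of the pathway, listed apart from the 41, gave few calls. Of 50 further replication genes, 0 of 42 were called with the cluster and with miR-155 in dataset A, and 0 of 43 with the cluster and with miR-125a in dataset B, by limma. At an unadjusted p under 0.05 the counts were 3 and 2 in dataset A (7.14% and 4.76%, where all genes gave 7.81% and 8.98%). In dataset B they were 1 and 5 (2.33% and 11.6%, where all genes gave 9.80% and 10.6%). Asf1b, a chaperone that hands histones to new DNA, came nearest. It had 7.31, 7.52 and 7.15 with the cluster, against 8.18, 7.81 and 7.93 with the empty vector of dataset A, a change of -0.65 (SE 0.17, limma adjusted p = 0.126). In dataset B it had 8.02, 8.12 and 8.11 with the cluster and 8.24, 8.23 and 8.12 with miR-125a, against 8.40, 8.55 and 8.76 with the empty vector. The cluster arrays lay below the empty vector in both datasets, by -0.49 (SE 0.12, limma adjusted p = 0.216) in the second, and miR-125a by -0.37 (SE 0.12, limma adjusted p = 0.316). Of 26 mitosis genes, 0 of 19 were called by limma with any vector, and at most 1 had an unadjusted p under 0.05.

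Among 29 E2F and G1/S regulators, 27 were tested in dataset A and 28 in dataset B, and 1 was called. E2f2, a transcription factor of the E2F family, fell with the cluster in dataset A: it had 7.95, 8.07 and 8.36, against 9.51, 8.75 and 9.56 with the empty vector. The change was -1.14 (SE 0.21, limma adjusted p = 0.0134), 2.21-fold lower, with no overlap. The change lay between -1.41 and -0.93 under the 16 alternatives run, and it was called under 6 of them: the trended robust prior (limma adjusted p = 0.000942), the stricter filter (0.0173), and without empty-vector array 2 (0.00135), cluster array 3 (0.0269) or either miR-155 array (0.0188 and 0.0235). The call was lost without empty-vector array 1 (0.0833) or 3 (0.124), cluster array 1 (0.0639) or the unnumbered cluster array (0.0819), as limma adjusted p. It was also lost under median scaling (0.112), without background correction (0.0678), without a filter (0.173) and on the authors' normalized values, in all groups (0.077) or in the cluster and empty-vector arrays alone, without (0.15) and with (0.167) the replicate block. With miR-155 E2f2 had 8.48 and 8.38, a change of -0.84 (SE 0.23, limma adjusted p = 0.138). In dataset B the changes were -0.48 with the cluster and -0.39 with miR-125a (limma adjusted p = 0.476 and 0.534). The cluster change in A minus that in B was -0.63 (limma adjusted p = 0.872).

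Maturing neutrophils do not divide, so their markers were set beside the replication genes. In dataset A the summed level of 18 tested genes, of a list of 19 for neutrophil maturation, was 34149 to 40435 on cluster arrays and 36344 to 36843 on miR-155 arrays, against 52378 to 59729 on empty-vector arrays. Of the 18, 6 fell with the cluster and 9 with miR-155, and 0 rose, where 33 and 86 of all 10267 genes fell. On the same arrays the summed level of the 39 replication genes was 33098 to 35469 and 35500 to 35634, against 33654 to 34731.

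Markers of other cell types moved on these arrays too. With miR-155, 2 of 11 monocyte and macrophage genes fell (Ms4a7 by 1.39 and Adgre1 by 0.91 on the log2 scale), and their summed level was 10079 to 13202, against 15985 to 19166 with the empty vector. Fcer1a, 1 of 10 mast cell and basophil genes, fell by 1.04 with miR-155, and Car2, 1 of 5 erythroid genes, rose by 1.14. The limma adjusted p of these 4 genes lay between 0.00336 and 0.0412. The 5 erythroid genes summed to 1992 to 2328 with miR-155, against 1337 to 1805 with the empty vector. Of the 10 annotated erythroid genes, only Car2 and Tfrc were detected on every array. Klf1 was detected on 2 of 3 empty-vector and 0 of 2 miR-155 arrays. With the cluster, 2 of 4 eosinophil genes fell (Prg2 by 1.30 and Prg3 by 1.11, limma adjusted p = 0.0148 and 0.00847), with a summed level of 215 to 362, against 533 to 868. Prg3 was detected on 3 of 3 empty-vector arrays but 1 of 3 cluster arrays, so the size of its fall is only a bound. The 7 lymphoid genes summed to 3064 to 3738 with the cluster, against 2106 to 2313 with the empty vector, and 0 of the 7 were called. Of these, Nkg7, which the granule list also holds, differed by 0.64, while Dntt differed by -0.50. Their mean log2 deviation from the dataset mean was -0.04 to 0.08 with the cluster, inside the -0.05 to 0.20 of the empty vector.

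In dataset B cluster array 5 and miR-125a array 2 stood apart, at 91603 and 102022 for the 17 neutrophil genes tested there, where the other arrays had 35551 to 76267. The replication genes on those 2 arrays summed to 34986 and 33389, the latter the lowest of the 9 arrays of dataset B. The group ranges were 34467 to 36030 with the cluster, 33389 to 37280 with miR-125a and 34563 to 35439 with the empty vector. Leaving out cluster array 5 and miR-125a array 2, 0 of 39 were called with either vector in dataset B. Ltf, Camp and Ngp were detected on every array, so no group lacked the defining neutrophil transcripts, and the part of these or the other cell types in any single difference above was not tested. In dataset B the 5 tested lymphoid genes summed to 2160 to 2449 with the cluster and 2023 to 2517 with miR-125a, against 1287 to 1843 with the empty vector. Nkg7 differed there by 0.67 with the cluster and 0.62 with miR-125a. Against that, Dntt differed by -0.62 with the cluster and Vpreb1 by -0.86 with miR-125a, each detected on 1 of 3 arrays of that vector. The mean log2 deviations of the 5 overlapped, at -0.06 to 0.15 and -0.19 to 0.04, against -0.14 to 0.26 with the empty vector. The 10 mast cell and basophil genes summed to 4241 to 9313 with miR-125a, against 3561 to 4061 with the empty vector, and 0 of the 10 were called. Their mean log2 deviations overlapped, at -0.15 to 1.11 with miR-125a against -0.16 to -0.11 with the empty vector.

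**Figure D4:**
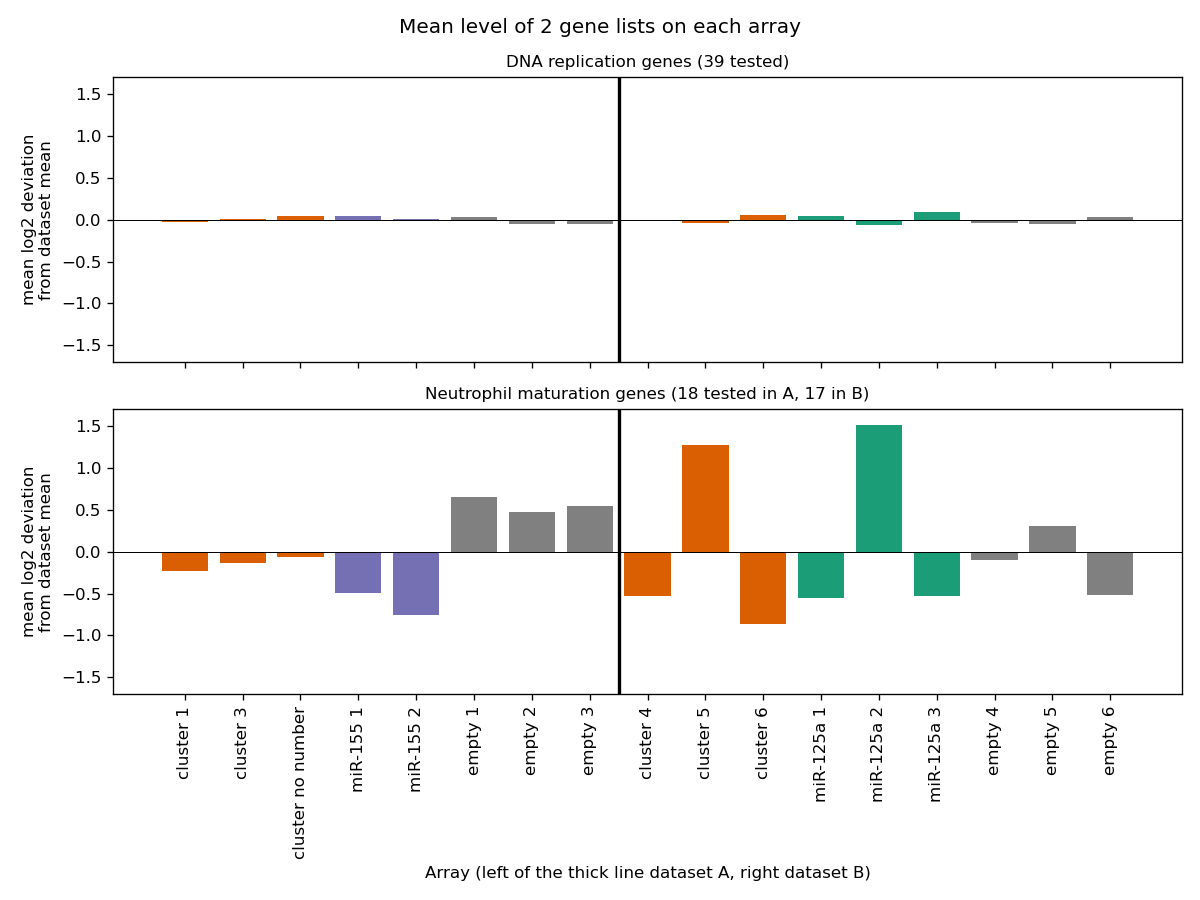
Mean log2 deviation from the dataset mean on each array, for the 39 tested replication genes (top) and the neutrophil maturation genes (bottom), with the same axis. The replication genes stay between -0.06 and 0.09 on all 17 arrays, while the neutrophil genes range from -0.86 to 1.51.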

How the data were processed

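RNA of sorted mouse marrow cells, 100 ng per sample per the labels' protocols, was measured on 17 single-colour Illumina bead arrays. The deposited tables hold bead intensity per probe, neither background-corrected nor normalized as far as the values show, and GenomeStudio is the tool that the submitters' processing notes name, without a version. A detection p-value for each probe is deposited beside it. The authors also deposited normalized values on a log2 scale, whose array median was 6.47 (dataset A) or 6.80 (dataset B). These ranked the probes as the intensities did (lowest rank correlation 1.00), and their normalization method is unknown here.

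Intensities were background-corrected by normexp with the detection p-values (offset 16), quantile-normalized within each dataset and taken to log2 with limma 3.58.1 in R 4.3.3. Of the 45281 probes, 34885 carry 1 gene symbol, 18 several and 10378 none; only the first were used. A gene was read from its brightest probe and tested if detected (p under 0.05) on at least 2 arrays of dataset A or 3 of dataset B. Groups were compared with limma's moderated test on all arrays of a dataset, with Benjamini-Hochberg adjustment over 10267 genes in A and 9395 in B. The cluster's change in A minus that in B was tested on 12 arrays normalized together (10098 genes). The code was first tested on simulated data. No 2 of the arrays held identical values (0 of 136 pairs).

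The design text speaks of triplicates, and 2 miR-155 arrays were analysed here. Among the intensity columns, 1 cluster array of dataset A carries no number of its own, so it enters without one. Same-numbered cluster and empty-vector arrays of dataset B deviated together (r of 0.12, 0.19 and 0.18 across genes), which was taken as pairing. The changes and p given for dataset B are nevertheless from the fit without a block, and the block was an alternative. In dataset A same-numbered cluster and empty-vector arrays did not deviate together (-0.19, -0.03 and 0.36 on the authors' values). For miR-155 and empty-vector arrays of the same number r was 0.23 on those values. The miR-125a arrays share no numbers with the empty-vector arrays of dataset B.

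All 41 genes were reported. From the other lists, the rule named in each comparison up to 3 called genes in each direction or, with none called, the 2 of largest change. Levels per array are printed only for Asf1b and E2f2 of these, and changes for some of the others. The genes and lists were chosen with earlier results of these data known. Alternatives were no background correction, median scaling, no filter or a stricter one, the authors' normalized values, every probe, a trended robust variance prior, a replicate block, and each array left out in turn. Leaving out cluster array 5 and miR-125a array 2 of dataset B together was added after seeing the data. Mature miRNA levels were not analysed here.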

Additional observations from a re-analysis of the deposited data

How the results depend on the processing

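No replication gene was called under the alternatives run, with 2 exceptions: median scaling for miR-125a, and Cdt1 with miR-155 in the block fit. The count of all genes called moved more. Without background correction it was 42 for the cluster and 56 for miR-155 against the empty vector in dataset A, 47 for the cluster against miR-155, and in dataset B 10 for the cluster and 7 for miR-125a. On the authors' normalized values the same counts were 42, 56, 46, 10 and 7. Without a filter those of dataset A were 21, 37 and 28. A trended robust prior gave 26 for the cluster and 18 for miR-125a in dataset B. Median scaling gave 21 for the cluster (8 rose, 13 fell, against 33 and 33) and 81 for miR-155 (0 rose, 81 fell, against 21 and 86) in dataset A, and 31 between these vectors (31 higher, 0 lower with the cluster, against 76 and 12). In dataset B it gave 56 for the cluster (54 rose, 2 fell), 1766 for miR-125a (10 of them replication genes), 4 between these vectors, and 1 for the difference between datasets. The median change of the replication genes then became -0.052, -0.34, 0.36 and 0.56, beside -0.08, -0.31, 0.32 and 0.48 over all genes, for the cluster and miR-155 in A and the cluster and miR-125a in B. The cause was not tested.

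Leaving out 1 array at a time, the genes called ranged from 30 to 60 for the cluster, 20 to 104 for miR-155 and 15 to 84 between them in dataset A, and from 0 to 2 for the cluster in dataset B. The replication genes' median with the cluster in A ranged from -0.017 to 0.081. The count for miR-155 was 20 without miR-155 array 2.

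With the replicate number as a block, 0 genes were called for the cluster in dataset B, where the pairing held, and the block changed no call of a replication gene there. In dataset A, where samples share only a number, the block on the authors' values gave 7 genes for the cluster (24 without the block on the same arrays) and 189 for miR-155 over 2 numbers, 1 of them a replication gene, Cdt1.

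With 2 or 3 arrays a group, small changes could not be told from none for most single genes, and no fold limit of detection is given here. In dataset B 1 of 9395 genes was called with the cluster and 0 with miR-125a. Some changes over 1.5-fold were not called either. In dataset A these included Asf1b, 1.57-fold lower with the cluster (limma adjusted p = 0.126), and E2f2, 1.79-fold lower with miR-155 (0.138). In dataset B, Prss34 of the mast cell and basophil list was 3.46-fold higher with miR-125a (limma adjusted p = 0.243). Sox4 of the primitive progenitor list was 1.75-fold lower with miR-125a (limma adjusted p = 0.111). Pola1, Pole2, Orc2 and, in dataset A, Gmnn and Prim1 lay at or near background on some or all arrays, so their values there are bounds or uncertain. The same held on some arrays for Prg3 in dataset A and for Dntt and Vpreb1 in dataset B.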
